A study of Mus musculus with 7 samples.

Results

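Osmolyte transport and the NFAT5 response were followed in mouse embryonic fibroblasts (MEFs) through 10 genes, chosen by symbol out of the 49382 genes in the expression table. These were Nfat5, Akr1b3, Akr1b8, Slc5a3, Slc6a6, Slc38a2, Sgk1, Wnk1, Stk39 and Slc12a2. They were chosen with earlier results of these data known. The MEFs were wild-type primary cells, by the sample labels from embryos of day 13.5 to 14.4 and used at passages 3 to 7. The paper's methods give a slightly later last embryonic day and a later first passage, and describe sorting MEFs to exclude macrophages. RNA-seq gave 7 libraries, 1 for each condition. The untreated control library was compared with osmotic stress (100 mM added NaCl for 3 hours), oxidative stress (10 µM sodium arsenite for 3 hours), ER stress (1 µM thapsigargin for 10 hours), glucose depletion for 10 hours, glutamine depletion for 10 hours and hypoxia (0.1% oxygen for 10 hours). No condition had a replicate, so no test was possible and no difference could be set against the spread between cultures. The study used these libraries to ask how stress alters what fibroblasts express, and the comparison here is of each condition with the control.

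Expression is given as TPM, the share of each library that a gene takes after correction for transcript length, scaled to a total of 1000000, so that levels of different genes can be set side by side. Changes are log2(TPM + 1) of a condition minus that of the control, and a gene was counted as risen or fallen where the change passed 2-fold on this scale. Adding 1 TPM makes the changes of weakly expressed genes smaller than their ratios of TPM. All 10 genes were among the 12909 genes kept, those whose TPM averaged 2 or more across the 7 libraries. Since TPM are shares of bulk RNA, fewer cells of a type and less RNA per cell cannot be told apart. All 6 comparisons share the 1 control library, and the stresses of 3 hours and of 10 hours differ in time as well as in kind. The harvest time of the control is not given in the sources used here.

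When the medium becomes hypertonic, water leaves the cell, and the cell first regains volume by taking up ions. The WNK kinases and the kinase SPAK (Stk39) switch on the sodium-potassium-chloride cotransporter NKCC1 (Slc12a2), chiefly by phosphorylation. Over the following hours the ions are replaced by organic osmolytes that disturb proteins less, such as sorbitol, myo-inositol, taurine and neutral amino acids. The transcription factor NFAT5, also called TonEBP, drives many of the genes for making and importing these osmolytes, and its best studied setting is the renal medulla.

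Promoter windows of 250 bases before to 50 bases after the start were given for 7 of the 10 genes in RefSeq (GRCm38.p6), as 12 windows of which 6 belong to Sgk1. Both strands were searched for TGGAAA, the core that NFAT sites share, for the longer tonicity-responsive enhancer consensus (TonE), whose matches contain that core, and for TTGCATCA, a composite site of C/EBP and ATF factors. The bases before the start of Nfat5 and Slc38a2 are shown because these genes changed most among the members with a window. The start of Slc5a3 is shown because Mrps6 begins beside it.
Nfat5, chr8:107293220-107293469, plus strand: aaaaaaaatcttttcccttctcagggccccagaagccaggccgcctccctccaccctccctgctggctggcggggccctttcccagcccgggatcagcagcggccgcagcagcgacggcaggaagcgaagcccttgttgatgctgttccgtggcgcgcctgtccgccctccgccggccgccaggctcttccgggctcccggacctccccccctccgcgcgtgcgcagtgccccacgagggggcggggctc
Slc38a2, chr15:96699731-96699978, minus strand: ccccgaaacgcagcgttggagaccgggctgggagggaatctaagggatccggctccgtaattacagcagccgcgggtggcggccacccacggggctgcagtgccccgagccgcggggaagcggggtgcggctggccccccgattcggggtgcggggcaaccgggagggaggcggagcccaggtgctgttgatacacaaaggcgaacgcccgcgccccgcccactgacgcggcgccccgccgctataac
Slc5a3, chr16:92058072-92058269, plus strand: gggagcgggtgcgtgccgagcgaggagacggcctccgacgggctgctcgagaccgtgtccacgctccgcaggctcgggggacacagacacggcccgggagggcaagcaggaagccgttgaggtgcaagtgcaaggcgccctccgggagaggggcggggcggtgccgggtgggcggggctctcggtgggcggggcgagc

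These stretches are rich in GC, at 71.6% for Nfat5, 72.2% for Slc38a2 and 75.8% for Slc5a3, against a median of 52.7% over all windows. None of the 3 holds any of the searched motifs, which says only that these letters are not in these stretches. TGGAAA was found in 3 of the 12 windows, which belong to Sgk1 and Stk39, and its matches are shown in capitals with 9 bases on each side.
Sgk1, chr10:21882070-21882093, plus strand, core read on the minus strand: tgctttctcTTTCCAtttaccttt
Sgk1, chr10:21993718-21993741, plus strand: gagattagtTGGAAAaaaaagtga
Stk39, chr2:68472194-68472217, minus strand: cccagcgcgTGGAAActtccctgg

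The match in the Stk39 window lies before the start given by RefSeq but inside the longer span that GENCODE gives the gene. It was also the 1 match to the TonE consensus, and TTGCATCA had 0 matches. Over all 32851 windows in RefSeq, 21.4% held TGGAAA, 4.96% the TonE consensus and 0.895% TTGCATCA. These matches are descriptions of letters, and no binding was measured in these cells.

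In osmotic stress 4 of the 10 genes rose and 0 fell, where 3.08% of the kept genes rose and 8.76% fell. The 4 were Akr1b3, Slc38a2, Nfat5 and Sgk1, and Sgk1 lay at the threshold. Of the kept protein-coding genes, to which all 10 belong, 1.41% rose and 7.35% fell. All 10 changes were above 0, as were 36.7% of the changes of all kept genes. The median change of the 10 genes was 0.65, and that of the kept genes was -0.12. With that shift of all genes removed, the median of the 10 genes was 0.77. The osmotic stress library was the highest of the 7 for 7 of the genes, and for 13.5% of the kept genes. Because the 10 genes were chosen with earlier results of these data known, these counts and shares are descriptions only.

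**Figure D1:**
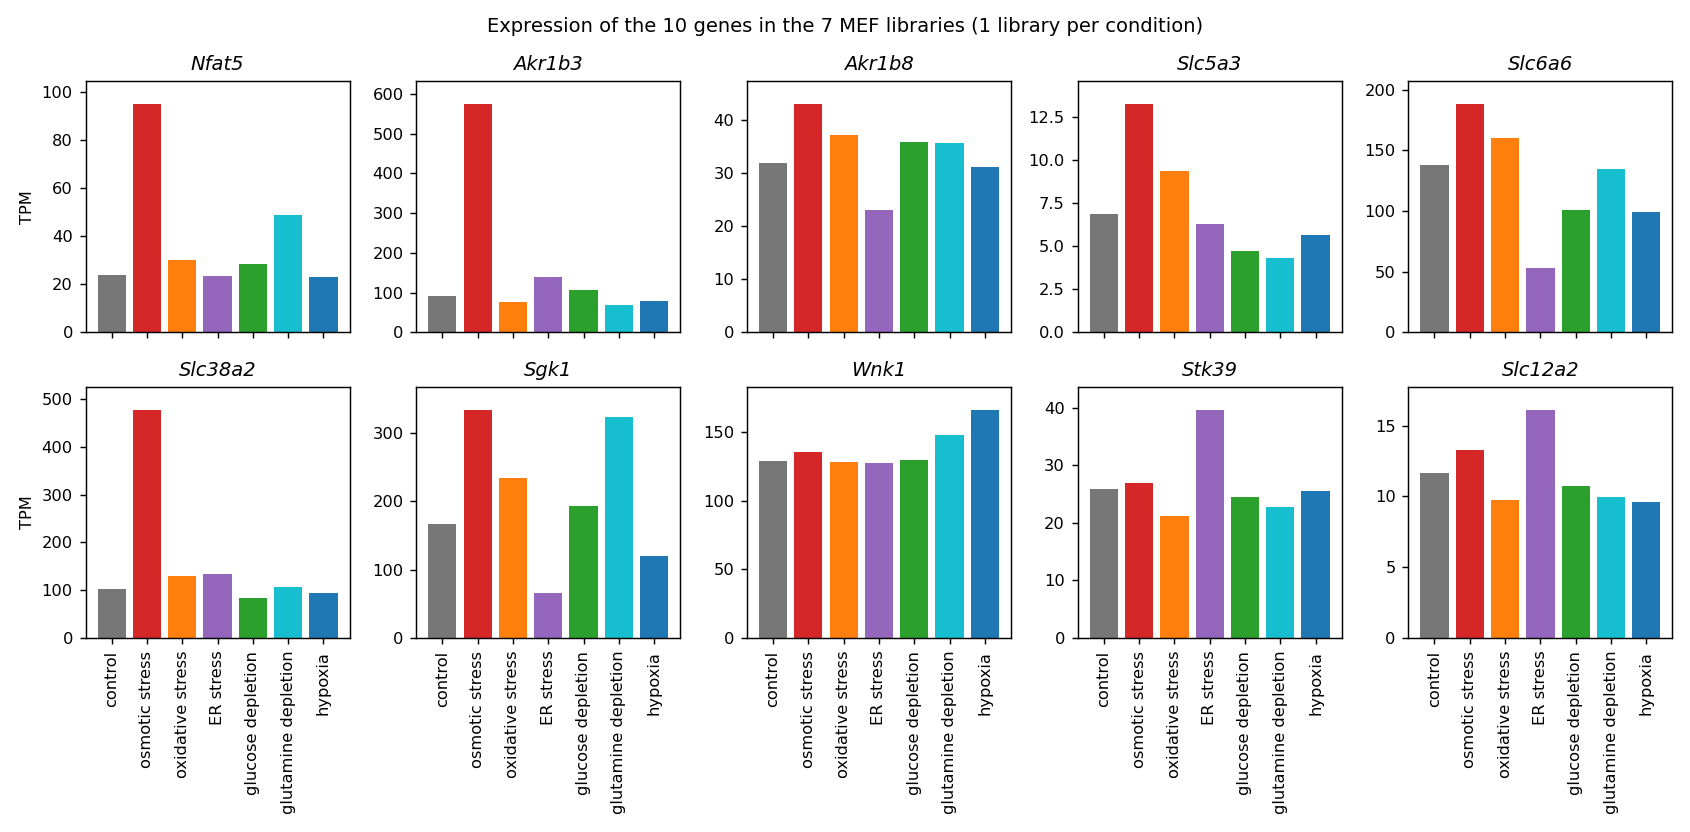
TPM (vertical axes, linear from 0, a scale for each gene) of the 10 genes in the 7 libraries, 1 bar per library and no error bars because no condition had a replicate. Akr1b3 reached 575 TPM and Slc38a2 478 TPM in osmotic stress, while Wnk1, Stk39 and Slc12a2 stayed within the range of the other libraries there.

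Nfat5 (ENSMUSG00000003847, GRCm38 chr8:107293470-107379517, plus strand) encodes the tonicity-responsive transcription factor itself. Its level was 23.7 TPM in the control, 95.2 in osmotic stress, 29.9 in oxidative stress, 23.5 in ER stress, 28.4 without glucose, 48.7 without glutamine and 22.9 TPM in hypoxia. Osmotic stress was the highest and glutamine depletion the next, and the other 5 libraries lay between 22.9 and 29.9 TPM. Nfat5 mRNA rose by 1.96 log2 units in osmotic stress, a ratio of TPM of 4.02. In order of change it stood 180th among the 12909 kept genes and 28th among the 11305 of them that are protein-coding, of which 1.41% rose. In glutamine depletion it rose by 1.01, which is just past 2-fold and became 0.90 with a pseudocount of 5 TPM, and its changes in the other 4 conditions lay between -0.04 and 0.33.

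Akr1b3 (ENSMUSG00000001642, chr6:34302434-34317478, minus strand) encodes aldose reductase, which makes sorbitol from glucose. It was measured at 90.5 TPM in the control, 575 in osmotic stress, 75.8 in oxidative stress, 139.8 in ER stress, 105 without glucose, 69.8 without glutamine and 78.7 TPM in hypoxia. Osmotic stress stood apart from the other 6 libraries, at 4.11 times the highest of them, ER stress. Akr1b3 rose by 2.66 log2 units in osmotic stress, the largest change among the 10 genes, the 142nd among all kept genes and the 11th among the protein-coding ones. Its other changes lay between -0.37 and 0.62.

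The neighbouring gene Akr1b8 (ENSMUSG00000029762, chr6:34354119-34368463, plus strand) encodes another aldo-keto reductase of the same family. Its level was 31.9 TPM in the control and 43.1 TPM in osmotic stress, and ran from 23.1 TPM in ER stress to 37.2 TPM in oxidative stress elsewhere. The change of 0.42 in osmotic stress did not pass 2-fold, although that library was the highest of the 7. For Akr1b10, of the same family, the control value was 20.4 TPM and the osmotic stress value 18.9 TPM. Of all 31-base words in the annotated transcripts of Akr1b3, 11.3% also occur in other listed genes, most of them in the pseudogene Gm6644, and 0 occur in Akr1b8. Gm6644 was listed at 0 TPM in the control and in osmotic stress and at no more than 0.991 TPM elsewhere. For Akr1b8 the share was 9.48%, most of it with Akr1b10, so reads from those stretches could be split between the genes.

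Slc5a3 (ENSMUSG00000089774, chr16:92058322-92087473, plus strand) encodes the sodium-coupled myo-inositol transporter. Its level was the lowest of the 10 genes in every library, at 6.87 TPM in the control, 13.3 in osmotic stress, 9.35 in oxidative stress, 6.30 in ER stress, 4.71 without glucose, 4.29 without glutamine and 5.65 TPM in hypoxia. Osmotic stress was the highest, and the 2 stresses of 3 hours held the 2 highest values. The ratio of TPM to the control was 1.93 in osmotic stress, and the change of 0.86 was just inside 2-fold. Against the median of the other 6 libraries it was 1.03, past 2-fold. Slc5a3 begins beside Mrps6, which encodes a mitochondrial ribosomal protein, and shares 159 exon bases with it on the same strand, 1.46% of its own. Mrps6 itself went from 91.6 to 157 TPM in osmotic stress, a change of 0.77, and the part of the shared bases in the Slc5a3 value was not tested.

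Slc6a6 (ENSMUSG00000030096, chr6:91684053-91759066, plus strand) encodes the taurine transporter. Its level was 138 TPM in the control, 188 in osmotic stress, 160.3 in oxidative stress, 52.6 in ER stress, 101 without glucose, 134 without glutamine and 99.4 TPM in hypoxia. Osmotic stress was the highest, with a change of 0.44 that did not pass 2-fold. ER stress was the lowest, where Slc6a6 fell by 1.37 log2 units.

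Slc38a2 (ENSMUSG00000022462, chr15:96687392-96699730, minus strand) encodes SNAT2, a sodium-coupled transporter of neutral amino acids. Its level was 102 TPM in the control, 478 in osmotic stress, 129.9 in oxidative stress, 135 in ER stress, 84.2 without glucose, 106 without glutamine and 94.9 TPM in hypoxia. The osmotic stress library held 3.55 times the highest of the other 6, which spanned a range of 1.60 times among themselves. Slc38a2 rose by 2.22 log2 units in osmotic stress, the 163rd largest among all kept genes and the 18th among the protein-coding ones. It is also known as a target of the amino acid response, and in glutamine depletion its change was 0.06.

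Sgk1 (ENSMUSG00000019970, chr10:21882184-21999903, plus strand) encodes a kinase whose transcription follows cell volume, serum and glucocorticoids, and which acts on ion channels and transporters. Its level was 167 TPM in the control, 334 in osmotic stress, 235 in oxidative stress, 65.3 in ER stress, 193 without glucose, 323 without glutamine and 120.3 TPM in hypoxia. Osmotic stress and glutamine depletion were close to each other at the top, with changes of 1.00 and 0.95 on either side of the 2-fold threshold. Whether these 2 changes differ was not tested. In ER stress Sgk1 fell by 1.34 log2 units. Its osmotic change was inside 2-fold with a pseudocount of 5 TPM (0.985), without mitochondrially encoded genes (0.985) and against the median of the other 6 libraries (0.90).

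The genes of rapid ion uptake did not pass 2-fold in osmotic stress. Wnk1 (ENSMUSG00000045962, chr6:119923969-120038672, minus strand), a kinase that responds to chloride and to crowding, was at 129 TPM in the control, 135 in osmotic stress, 128 in oxidative stress, 128 in ER stress, 129.7 without glucose, 148 without glutamine and 166 TPM in hypoxia. It was the flattest of the 10 genes, with a change of 0.07 in osmotic stress and its highest value, a change of 0.37, in hypoxia.

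Stk39 (ENSMUSG00000027030, chr2:68210445-68472268, minus strand), the kinase that WNK1 activates, was at 25.9 TPM in the control, 26.8 in osmotic stress, 21.3 in oxidative stress, 39.7 in ER stress, 24.5 without glucose, 22.7 without glutamine and 25.6 TPM in hypoxia. Slc12a2 (ENSMUSG00000024597, chr18:57878678-57946821, plus strand), the cotransporter that this kinase phosphorylates, was at 11.6 TPM in the control, 13.3 in osmotic stress, 9.73 in oxidative stress, 16.1 in ER stress, 10.7 without glucose, 9.95 without glutamine and 9.63 TPM in hypoxia. Both were highest in ER stress, with changes of 0.59 and 0.44. In osmotic stress their changes were 0.05 and 0.18, and both values lay inside the range of the other 6 libraries.

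**Figure D2:**
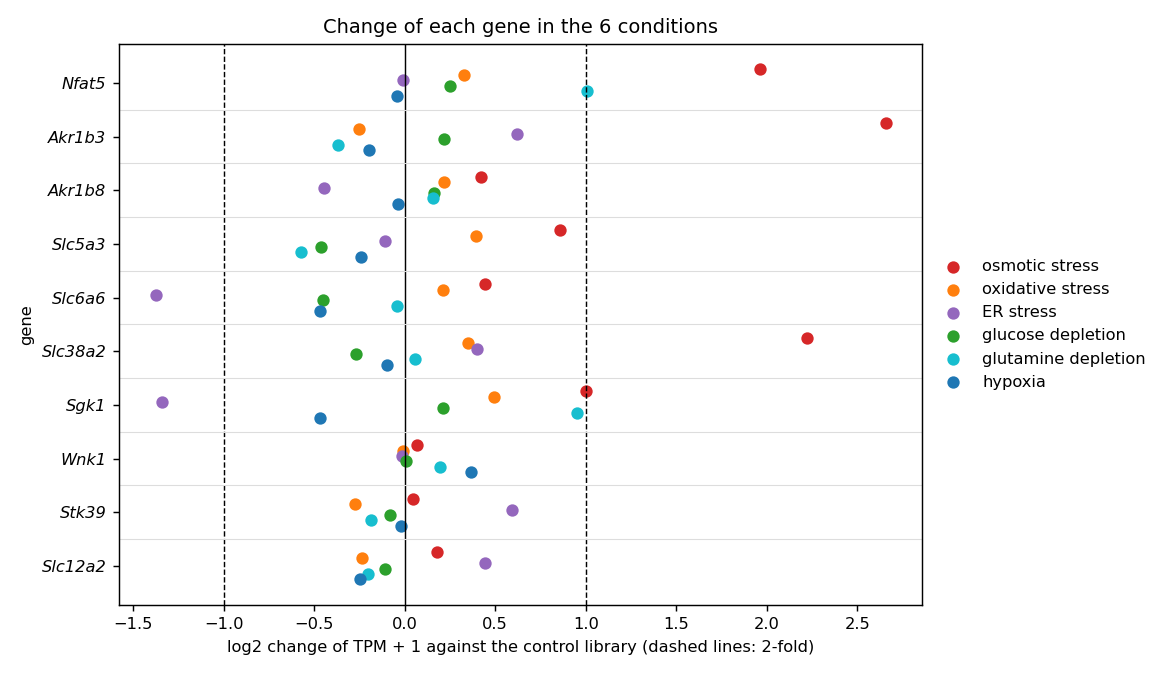
Change of log2(TPM + 1) against the control library (horizontal axis) for the 10 genes in the 6 conditions, 1 point per library, with dashed lines at 2-fold. Akr1b3, Slc38a2 and Nfat5 lie far to the right in osmotic stress, and Slc6a6 and Sgk1 lie past the left line in ER stress.

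The other library of 3 hours, oxidative stress, gave a comparison at matched time. There 0 of the 10 genes rose and 0 fell, where 3.94% of the kept genes rose and 4.85% fell, and the changes lay between -0.28 and 0.49. With the shift of all genes removed, the split of the kept genes in oxidative stress became 4.75% risen and 3.20% fallen. Taken directly from the oxidative to the osmotic stress library, the change was 2.91 for Akr1b3, 1.87 for Slc38a2 and 1.64 for Nfat5. The same difference was 0.51 for Sgk1 and 0.46 for Slc5a3, below 2-fold.

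In ER stress 0 genes rose and 2 fell, Slc6a6 and Sgk1, where 8.60% of the kept genes rose and 11.0% fell. ER stress was also the library in which 4 of the 10 genes were lowest and 2, Stk39 and Slc12a2, highest, as were 24.1% and 33.2% of the kept genes. In glucose depletion 0 rose and 0 fell, where 1.83% of the kept genes rose and 2.41% fell. In glutamine depletion 1 gene, Nfat5, rose and 0 fell, where 3.21% of the kept genes rose and 3.21% fell. In hypoxia 0 rose and 0 fell, where 3.57% of the kept genes rose and 2.64% fell. The median change of the 10 genes was 0.22 in oxidative stress and -0.15 in hypoxia, and lay between -0.04 and 0.01 in the other 3.

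**Figure D3:**
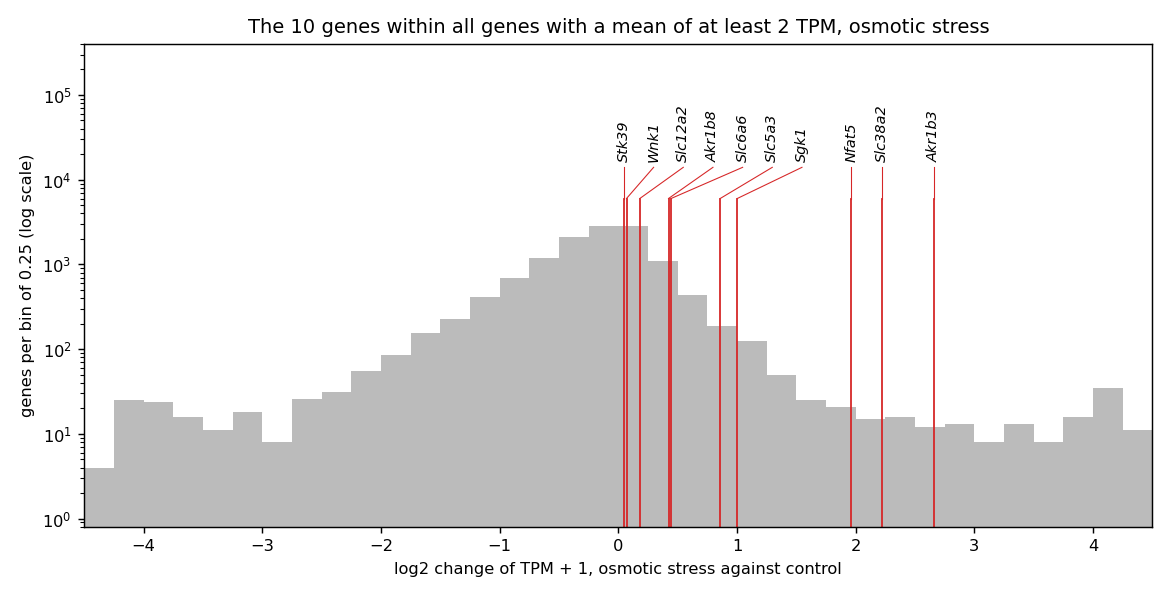
Histogram of the change in osmotic stress (log2 scale, horizontal axis) for the 12909 kept genes, with the number of genes on a logarithmic vertical axis and the 10 genes as red lines. The axis ends at 4.5 on either side, which leaves out 65 genes, and all 10 lines lie to the right of 0.

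Other genes of osmotic adaptation were followed in 9 lists of 115 genes, none of them among the 10, of which 88 were kept. In osmotic stress 6 of the 88 rose and 3 fell, beside 3.08% and 8.76% of all kept genes, with a median change of 0.08. The counts of the same genes that rose and fell were 4 and 2 in oxidative stress, 9 and 15 in ER stress, 0 and 0 in glucose depletion, 3 and 2 in glutamine depletion, and 4 and 2 in hypoxia. The shares of all kept genes that rose and fell were 3.94% and 4.85% in oxidative stress and 8.60% and 11.0% in ER stress. They were 1.83% and 2.41% in glucose depletion, 3.21% and 3.21% in glutamine depletion and 3.57% and 2.64% in hypoxia. Among 11 kept NFAT family members and partners 1 rose, Rcan1, an inhibitor of calcineurin, from 39.2 to 82.7 TPM (1.06). Rcan1 also rose in oxidative stress, by 2.26, and in ER stress, by 3.11. The list had a median of 0.13 in osmotic stress.

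Of 7 kept genes known as further NFAT5 targets, 2 rose in osmotic stress and 0 fell, with a median of 0.53. The list held 12 genes, and those below the expression filter were not counted. Their changes were at or below 0, among them Slc6a12 (-0.34) and Il6 (-1.19). Hspa4l, a chaperone of the HSP110 family, went from 16.7 to 70.3 TPM (2.01) and reached 31.5 TPM in oxidative stress. Hspa1b, an inducible HSP70, went from 22.8 to 263 TPM (3.47), and it rose more in oxidative stress, to 413 TPM (4.12). Hspa1b is nearly identical to Hspa1a, so its value is uncertain.

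A subunit of the sodium pump rose in osmotic stress and in no other condition. Among 16 kept ion exchangers, pump subunits and volume-regulated anion channel subunits, 1 rose and 1 fell, with a median of -0.07. Atp1b1, the beta subunit of the sodium pump, went from 50.6 to 193 TPM (1.92), and its changes in the other 5 conditions lay between -0.52 and 0.13. Lrrc8e, a subunit of the volume-regulated anion channel, fell from 2.88 to 0.527 TPM (-1.35), and it also fell in oxidative stress, by 1.07.

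In 4 lists 0 genes rose and 0 fell in osmotic stress. These were 13 kept genes of organic osmolyte synthesis and uptake (from -0.58 to 0.41), 6 aldo-keto reductases and polyol enzymes (from -0.24 to 0.41), 5 other Slc38 transporters (from -0.39 to 0.66) and 11 cation-chloride cotransporters and genes of the WNK pathway (from -0.23 to 0.59). Their medians were 0.10, -0.05, 0.06 and 0.07, beside -0.12 for the kept genes.

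Of 13 kept genes around SGK1 and the TSC22 family 1 rose, Tsc22d2, from 62.1 to 126 TPM (1.01), and the list had a median of 0.06. The list includes Pdk1, in the mouse a pyruvate dehydrogenase kinase and not the kinase that activates SGK1. Without Pdk1 the count was 1 of 12 with a median of -0.03, and over all lists 3 of 87 genes rose in hypoxia. Tsc22d2 belongs to a family of leucine zipper proteins linked to cell volume, and it also rose in ER stress, to 132 TPM (1.07). The other listed family members, Tsc22d1 (-0.49), Tsc22d3 (-0.86) and Tsc22d4 (-0.40), went down in osmotic stress without passing 2-fold. In the list of the glucocorticoid receptor and its targets, 1 of 6 kept genes rose and 2 fell, with a median of -0.48. Klf9, a transcription factor, went from 41.4 to 86.5 TPM (1.05). Fkbp5, a co-chaperone of the glucocorticoid receptor, fell from 23.6 to 10.9 TPM (-1.05), and it also fell in ER stress, to 10.1 TPM (-1.15). Cebpd, a transcription factor, fell from 9.91 to 4.25 TPM (-1.06).

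With a pseudocount of 5 TPM 3 of the 9 listed genes stayed past 2-fold in osmotic stress, Hspa1b, Hspa4l and Atp1b1. The other 6 then ran from -0.85 for Fkbp5 to 0.99 for Rcan1.

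**Figure D4:**
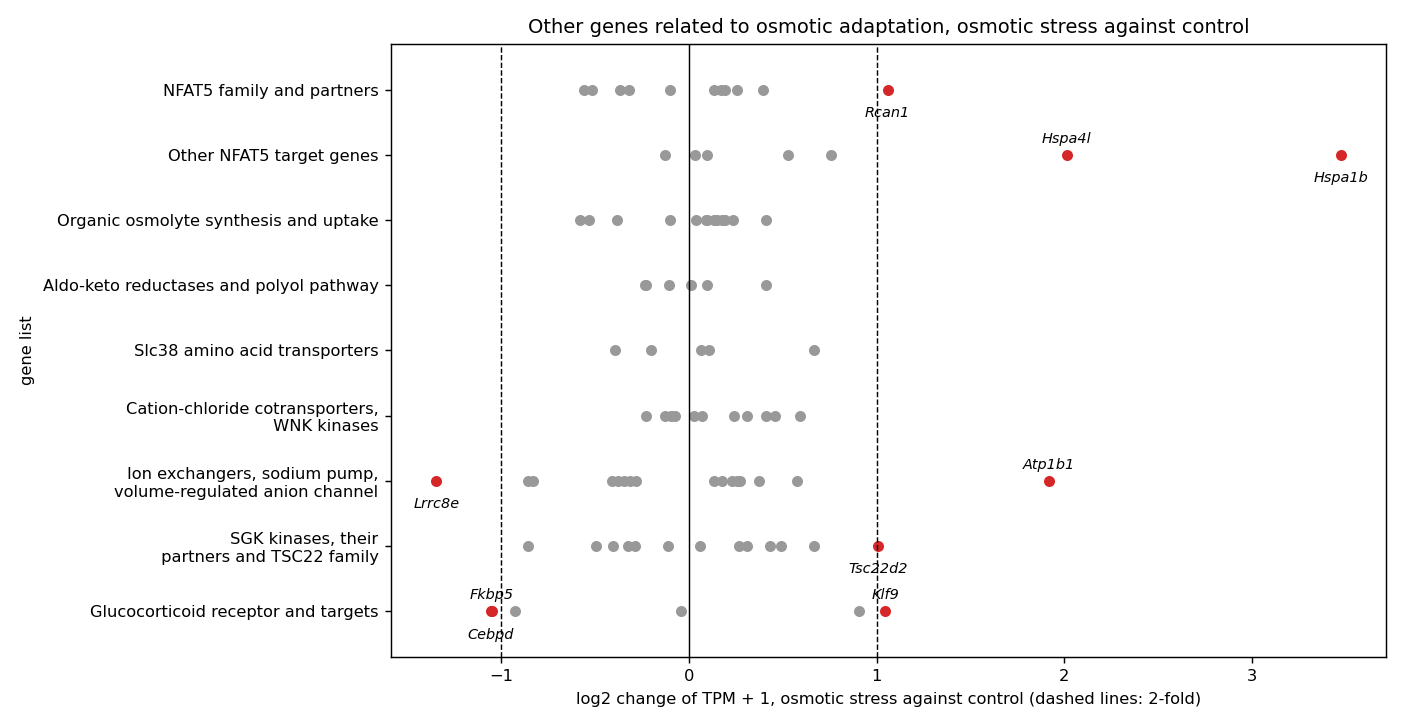
Change in osmotic stress against the control (log2 scale, horizontal axis) of the kept genes in the 9 lists, 1 point per gene, with genes past 2-fold in red and named and dashed lines at 2-fold. Of 88 genes, 9 lie past the lines, Hspa1b, Hspa4l and Atp1b1 farthest to the right.

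Likeness of pattern was measured as Pearson r of log2(TPM + 1) over the 7 libraries among 3762 genes that averaged 10 TPM or more and had a range of at least 1 log2 unit, as a description, since the points share the libraries. The 5 genes most like Nfat5 were Slco4a1, an organic anion transporter (0.96), Skil, a corepressor of TGF-beta signalling (0.95), the transcription factor Ets1 (0.95), the Wnt receptor Fzd7 (0.93) and Spp1, osteopontin (0.92). In all 5 the osmotic stress library was the highest and glutamine depletion the next. As the 5 were picked by their r with Nfat5, this order largely follows from the choice. Slco4a1 went from 5.89 TPM in the control to 72.3 TPM in osmotic stress and 30.0 TPM in glutamine depletion.

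The 5 genes most like Akr1b3 were Uvrag (0.99), Phf13 (0.98), Nufip2 (0.96), Cacul1 (0.96) and Rfx7 (0.96). For these osmotic stress was the highest library and ER stress the next, which again largely follows from the choice. Uvrag, a gene of autophagy and endosome traffic, went from 23.8 to 62.1 TPM in osmotic stress. Only 5 of the 10 genes, Nfat5, Akr1b3, Slc6a6, Slc38a2 and Sgk1, met these limits and were compared. Of these Slc38a2 was nearest to Akr1b3, at 0.93 and in 10th place, and Nfat5 had 0.74 with Akr1b3. For Nfat5 the nearest of the 5 was also Slc38a2, at 0.83 and in 23rd place. All 5 members were highest in osmotic stress and were chosen with earlier results of these data known. The r between members therefore largely restate that shared rise in 1 library, and whether these genes are regulated together was not tested.

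All 10 fibroblast markers were at 2 TPM or more in each of the 7 libraries. Their summed level ran from 11342 TPM in ER stress to 20618 TPM in osmotic stress, with 19484 TPM in the control. Macrophage markers summed to 7.92 to 17.9 TPM, highest in osmotic stress, where 3 of 7 reached 2 TPM against 1 of 7 in the control. Ptprc, which marks blood cells, was at 0 in both. Endothelial markers summed to 3.51 to 7.13 TPM, epithelial to 0.335 to 2.46, erythroid to 0 to 1.01 and neural to 24.5 to 128 TPM. Their part in the changes above was not tested. Between 19819 and 21154 genes per library were above 0, and mitochondrially encoded genes took 5.09% to 9.25% of the TPM.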

How the data were processed

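RNA-seq of 7 MEF libraries (stranded, paired-end, 76 bases) was analysed from the TPM that the authors deposited. Per the methods and the submitters' processing notes, the authors estimated TPM with kallisto 0.43.1 at default settings on the full cDNA set of Ensembl release 90 for GRCm38 and summed them for each gene. TPM keeps no read count, so the depth is unknown and no counting error can be given. Libraries were assigned to conditions from their labels.

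A pseudocount of 1 was added to the deposited TPM, the log2 was taken, and the value of the control was subtracted. Genes averaging 2 TPM or more were kept. Changes of more than 2-fold were counted, a rule taken from the study's methods. Gene types, locations and transcripts came from GENCODE M21 (GRCm38), with 125 kept genes unmatched, and promoter windows from RefSeq. The annotation was also searched for overlapping exons and shared words of 31 bases. The members and the 9 pathway and 6 marker lists were chosen with earlier results of these data known. All 10 members are named, with list genes past 2-fold in osmotic stress (at most 3 per list) and the 5 genes most like Nfat5 and Akr1b3. Akr1b10, Mrps6, Gm6644, Tsc22d1, Tsc22d3, Tsc22d4, Slc6a12 and Il6 were chosen after their values were seen. Alternatives were other pseudocounts, filters, thresholds, centring, removal of mitochondrially encoded genes and other references, with the protein-coding restriction, the lists without Pdk1 and the alternatives for list genes and for the other conditions added after seeing the data. Of the steps, the calculation of the changes and the 2-fold calls were tested on simulated data. The software was pandas 2.3.3 and numpy 2.4.6 under Python 3.11.15, with plots by matplotlib 3.10.9.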

Additional observations from a re-analysis of the deposited data

How the results depend on the processing

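No called value changed sign under any alternative tried. The number of the 10 genes that rose in osmotic stress ran from 3 to 5. Akr1b3 (2.60 to 2.78), Slc38a2 (2.18 to 2.34) and Nfat5 (1.80 to 2.08) passed 2-fold with every pseudocount and filter tried and against either the control or the median of the other 6 libraries, while Sgk1 ran from 0.90 to 1.12 and Slc5a3 from 0.62 to 1.03. The median of the 10 genes in osmotic stress was 0.53 with a pseudocount of 5 TPM, 0.44 with a mean of at least 10 TPM, 0.77 after centring and 0.79 against the median of the other 6 libraries. Centring moved their median in oxidative stress to 0.37. In glutamine depletion the number that rose was 0 with a pseudocount of 5 TPM, at 3-fold and against the other 6 libraries, and 2 after centring and at 1.5-fold. In ER stress 2 rose at 1.5-fold and 0 fell at 3-fold. Of the listed genes, 3 passed in osmotic stress with a pseudocount of 5 TPM, 18 at 1.5-fold and 3 at 3-fold, against 9. The share of all kept genes that rose in osmotic stress ran from 1.65% at 3-fold to 6.56% at 1.5-fold. The causes of these moves other than the threshold itself were not tested. No paired analysis was possible because each condition had 1 library, and for the same reason no library could be left out. Depth is unknown, so no limit from counting can be given.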

Other observations

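The genes named here are from the same 9 lists and were chosen after their values were seen. Of the 88 kept genes 9 rose and 15 fell in ER stress, where 8.60% of the kept genes rose and 11.0% fell. Of the 7 further NFAT5 targets 0 rose and 4 fell. S100a4, a calcium-binding protein, fell from 3444 to 296 TPM, and the water channel Aqp1 fell from 239.7 to 74.3 TPM. Isyna1, the enzyme that makes myo-inositol phosphate, rose from 17.5 to 55.4 TPM, and the glutamine transporter Slc38a1 rose from 30.7 to 74.2 TPM. Slc6a12, the betaine transporter and a textbook NFAT5 target, was below the expression filter and stood at 0.586 TPM in the control, 0.254 in osmotic stress and 9.47 TPM in ER stress.

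In hypoxia Ndrg1, a substrate of SGK1, rose from 11.7 to 149 TPM and Ndrg2 from 5.10 to 40.4 TPM, while Sgk1 itself stood at 120.3 TPM against 167 TPM in the control. In glutamine depletion Nfatc1, a calcium-regulated relative of NFAT5, rose from 14.5 to 61.7 TPM, and Errfi1, an inhibitor of EGF receptor signalling, rose from 28.1 to 298 TPM.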
